A study of Rattus norvegicus with 12 samples.

Results

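Ribosomal protein genes were examined in the ovaries of rats with polycystic ovary syndrome (PCOS) and of rats then given mogroside V (MV), a sweet glycoside of monk fruit. Members were taken by name from the deposited table: gene names that begin with Rpl or Rps and a number, without the S6 kinase genes, together with Rplp0, Rplp1, Rplp2 and Rpsa. This gave 91 gene ids with 85 symbols, of 19730 genes in all. RNA-seq was performed on 12 ovaries of wild type female Sprague Dawley rats, 1 library per rat, at 15 weeks of age by the labels. The control group (n = 4) had standard food and no treatment. The PCOS group (n = 4) had letrozole, an aromatase inhibitor, at 1 mg/kg a day by mouth with a high-fat diet for 30 days. The PCOS-MV group (n = 4) had the same induction and then MV at 600 mg/kg a day by gavage for another 30 days. PCOS rats were picked by vaginal smears that stayed in metestrus or diestrus, and the estrous stage at collection was not given in the sources used here. The values were FPKM, read fragments scaled to gene length and to the number of mapped fragments, and the depth of the libraries is unknown.

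The cytosolic ribosome is built from a small (40S) and a large (60S) subunit, each made of ribosomal RNA and 1 copy of most of its proteins. The messenger RNAs of these proteins are short and abundant, and most start with a 5′ terminal oligopyrimidine (TOP) tract, a run of C and U through which mTOR signalling and the RNA-binding protein Larp1 control their translation. Granulosa, theca and luteal cells all need ribosomes for growth and for making steroidogenic enzymes. Of the members, 28 encode proteins of the 40S subunit, 43 encode proteins of the 60S subunit, 8 are paralogs, 11 are further copies under a shared or derived name and 1, Rps19bp1, encodes a binding protein of S19 and is not a ribosomal protein. A symbol was shared by several gene ids in 4 cases, over 10 gene ids, and 11 members had a single exon. Reads of near-identical copies may have been divided between gene ids by the counting, so values of the copies are uncertain.

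Promoter windows are shown because the TOP tract is the sequence feature that most members share and that the selection did not use. They are from RefSeq, build GRCr8, 40 bases before to 20 bases from the annotated start, 5′ to 3′ on the gene's strand. Capitals mark a run of at least 5 C or T that comes within 3 bases of the start.
Rps27, chr2:177964587-177964646, minus strand: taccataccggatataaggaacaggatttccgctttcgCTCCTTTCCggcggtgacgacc
Rpl37a, chr9:81748051-81748110, plus strand: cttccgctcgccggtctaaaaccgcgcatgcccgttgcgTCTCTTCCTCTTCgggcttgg
Rps24, chr16:96477-96536, plus strand: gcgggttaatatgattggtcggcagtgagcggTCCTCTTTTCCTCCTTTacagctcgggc
Rps3a, chr2:173827023-173827082, minus strand: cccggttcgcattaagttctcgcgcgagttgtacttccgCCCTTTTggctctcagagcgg
Rpl24, chr11:58128386-58128445, minus strand: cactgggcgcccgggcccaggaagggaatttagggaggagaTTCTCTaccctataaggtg
Rplp1, chr8:71290853-71290912, minus strand: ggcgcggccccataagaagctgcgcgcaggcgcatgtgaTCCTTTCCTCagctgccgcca
Rps27l, chr8:76443618-76443677, plus strand: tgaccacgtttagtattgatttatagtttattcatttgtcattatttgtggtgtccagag
The first 5 genes passed a test below, Rplp1 had the highest level of all members, and Rps27l, a paralog of Rps27, had no such run in this window. Symbols of 70 members were found in the table. Of 57 promoters of 40S and 60S genes, 39 (68.4%) had the run on the sense strand, against 22.5% of all 33469 promoters, 22.4% of those of the genes tested and 29.2% of those of mitochondrial ribosomal protein genes. The letters CCGGAA, searched on both strands of the 300 bases, were in 49.1% of the same 57 promoters, in 26.7% of promoters of the genes tested, in 15% of all and in 50.8% of 65 promoters of mitochondrial ribosomal protein genes. These letters can overlap a tract. The run was present in 8 of 12 promoters of 40S and 60S genes that passed a test between groups and in 31 of 45 promoters of those that did not. Among those that passed, the promoters of Rpl5, Rps6, Rpl26 and Rpl21 had no run, and their windows are not shown. Of 65 promoters of all members, 40 (61.5%) had the run. Promoters were matched by symbol, and for Rpl21 the promoter lies on chromosome 12, whereas the id that passed lies on chromosome X. For Rps9l1 the promoter lies on chromosome X, whereas the id that passed lies on chromosome 1. The Rps9l1 promoter had the run and is included in the 8 of 12 and the 39 of 57.

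Members were among the most abundant messenger RNAs of the ovary. The median member had a mean of 310.1 FPKM over the 12 libraries, against 10.1 FPKM for the median gene tested. Of the 100 genes with the highest mean, 39 were members. Rplp1 (1270 FPKM) and Rplp0 (1114 FPKM), both of the 60S stalk that recruits elongation factors, came first, followed by Rpl41 (976 FPKM), Rps18 (974 FPKM) and Rpl10 (887 FPKM). In 79 of 86 neighbouring pairs of this order the mean difference of log2 levels was within its SD over the 12 libraries. That SD is the spread of single libraries, so the count is no test of the order. Rps7, for example, was within the SD of Rps3a by this count but above it in 11 of 12 libraries. The lowest tested members were Rps4y2 (3.18 FPKM), Rpl10l (5.12 FPKM), Rps15al4 (5.92 FPKM), Rpl35al1 (9.85 FPKM) and the Rpl21 copy on chromosome 3 (12.3 FPKM). The 71 genes of the subunits spanned 9.85 to 1270 FPKM although their proteins are mostly present once per ribosome. The lowest was Rpl35al1, an id of 2 exons with a derived name that was counted with the 60S genes. The next lowest subunit gene was Rpl36a (42.1 FPKM).

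**Figure D1:**
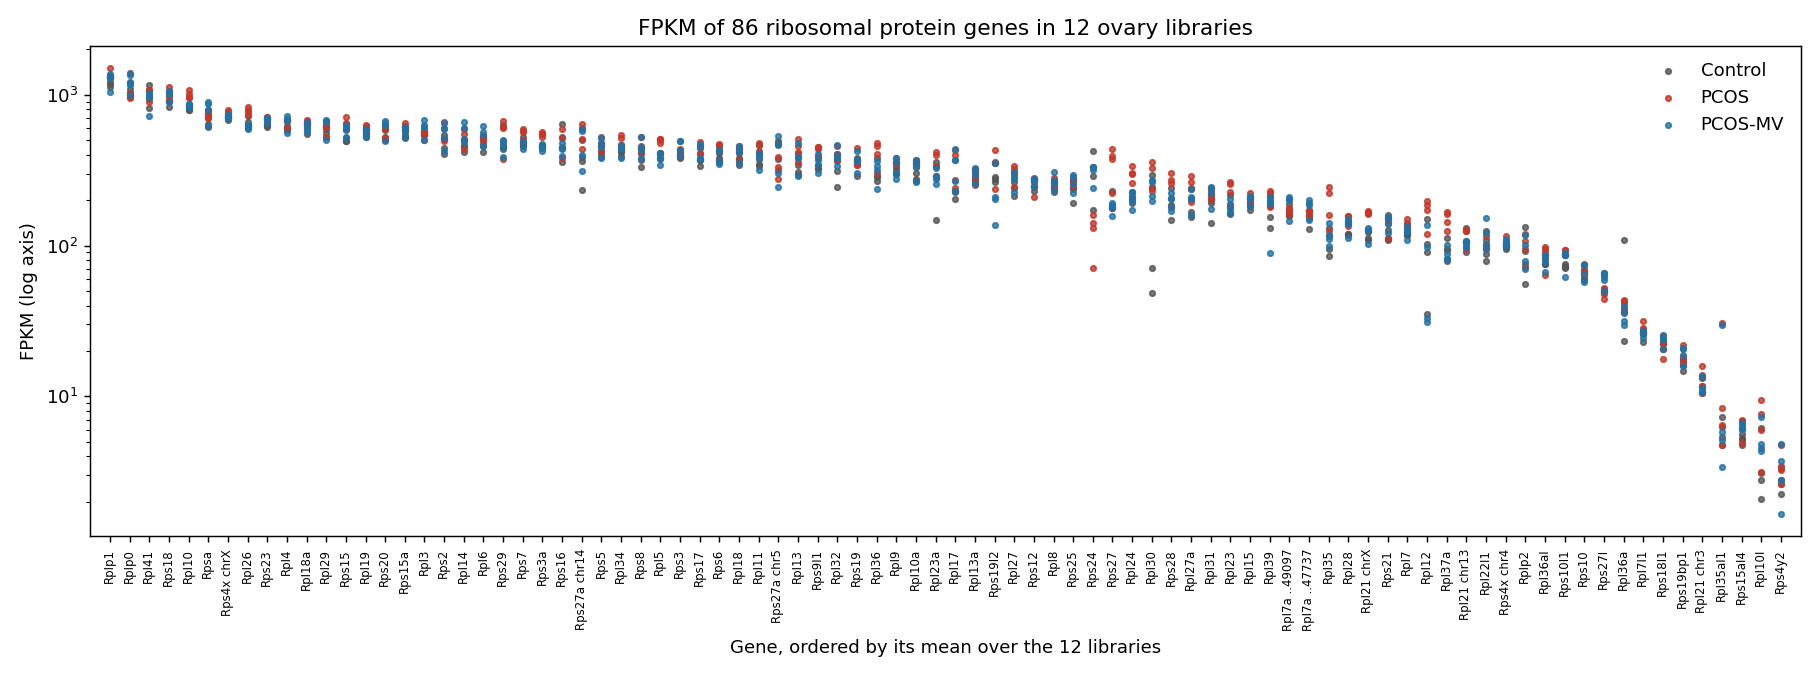
FPKM on a log axis of 86 of the 87 ribosomal protein genes that averaged 1 FPKM or more without any 0, ordered by mean, with 1 point per library coloured by group. Levels run from 3.18 FPKM for Rps4y2 to 1270 FPKM for Rplp1, and most points of a gene lie close together, whereas Rpl30, Rpl12 and Rpl35al1 are spread widely.

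A few gene ids stood apart by their zeros or low level. The Rpl21 id on chromosome 12, the only one of 4 with several exons (5), was listed at exactly 0 in 6 libraries, whereas the other 6 had 158 to 327 FPKM. It had 271, 281, 210 and 0 FPKM in the control group, 0, 327, 297 and 0 FPKM in the PCOS group and 158, 0, 0 and 0 FPKM in the PCOS-MV group. Its zeros fell in every group, so no fold change is given. Rpl30l1 and the muscle paralog Rpl3l also had values of 0, with means of 0.188 and 0.0357 FPKM, and Rpl39l, a paralog known from testis, had a mean of 0.786 FPKM. The remaining 87 members were compared between groups.

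Summed over these 87 genes, members took 8.47%, 7.83%, 8.03% and 8.01% of all FPKM in the control libraries. The share was 8.14%, 9.28%, 9.13% and 9.19% in the PCOS libraries and 8.48%, 8.79%, 7.36% and 8.93% in the PCOS-MV libraries. PCOS replicate 1 lay within the control range, and the other 3 PCOS libraries lay above all control libraries. PCOS-MV replicate 3 had the lowest share of all. The 60S sum divided by the 40S sum was 1.30 ± 0.0333 in the control group, 1.34 ± 0.0146 in the PCOS group and 1.29 ± 0.0468 in the PCOS-MV group (SD, n = 4). In whole ovary, more ribosomal messenger RNA per cell and more cells rich in it cannot be told apart.

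**Figure D2:**
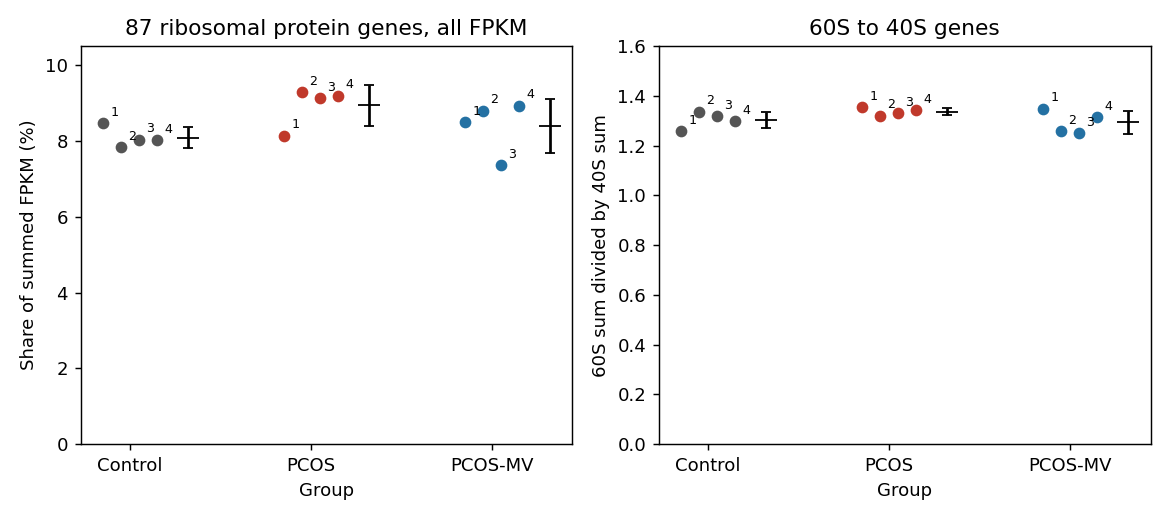
Left, share of all FPKM taken by 87 ribosomal protein genes. Right, the 60S sum divided by the 40S sum. Points are libraries with replicate numbers, bars are mean and SD (n = 4), and both axes start at 0. PCOS replicates 2 to 4 lie at 9.13% to 9.28%, above the control libraries at 7.83% to 8.47%.

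To ask whether the model changed these genes, the PCOS group was compared with the control group by limma on log2(FPKM + 1), with Benjamini-Hochberg adjustment over all 13430 genes tested and a threshold of 0.05. Of the 87 members, 12 rose and 2 fell, which is 16.1% against 27.4% of all genes tested (11.9% rose and 15.6% fell). Most members were slightly higher in the PCOS group without passing the test. The median log2 fold change was 0.19, a 1.14-fold difference, against -0.03 for all genes, and 78 of 87 members were above 0, against 45.4% of all genes. In 18 members the 4 PCOS libraries did not overlap the 4 control libraries, against 31% of all genes. They were higher in 17 (13.8% of all genes) and lower in 1 (17.2% of all genes). An unadjusted p under 0.05 was found in 31 members, against 39.4% of all genes. For 54 of the 73 members that did not pass, the 95% interval of the log2 fold change lay within 1.5-fold in either direction.

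Of the 40S genes, 4 of 28 rose and 1 fell (median log2 fold change 0.16), against 11.9% and 15.6% of all genes tested. Rps27, which encodes a zinc finger protein of the 40S subunit, rose most. It had 231, 177, 184 and 176 FPKM in the control group, 224, 377, 389 and 436 FPKM in the PCOS group and 190, 180, 157 and 186 FPKM in the PCOS-MV group. PCOS replicates 2 to 4 were above every other library, while PCOS replicate 1 lay within the control range. The log2 fold change was 0.85 ± 0.20 (SE, adjusted p = 0.0145, limma). Its paralog Rps27l had 57.1 ± 8.10, 48.1 ± 3.24 and 59.7 ± 7.0 FPKM in control, PCOS and PCOS-MV rats and did not pass in either comparison (adjusted p = 0.139 and 0.0532, limma). Rps27l made up 22.9% ± 1.97 of the summed FPKM of the pair in the control group, 12.6% ± 4.21 in the PCOS group and 25.1% ± 1.07 in the PCOS-MV group (SD, n = 4).

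Rps24, a 40S gene known for its role in Diamond-Blackfan anemia, moved the other way. It had 422, 172, 287 and 332 FPKM in the control group, 70.6, 140, 131 and 159 FPKM in the PCOS group and 330, 333, 316 and 242 FPKM in the PCOS-MV group. All 4 PCOS libraries were below all 8 others. The log2 fold change was -1.26 ± 0.32 (SE, adjusted p = 0.0188, limma), and the gene no longer passed without Control replicate 4. Rps3a, Rps6 and Rps9l1 were the other 40S genes that rose, and in fits that left out a library Rps3a passed in 5 of 8 and Rps9l1 in 3 of 8. Rps3a had 449 ± 5.36 FPKM in the control group and 546 ± 15.1 FPKM in the PCOS group (SD, n = 4; log2 fold change 0.28 ± 0.07, adjusted p = 0.0175, limma). Rps6, the substrate of the S6 kinases, had 381 ± 21.6 and 452 ± 18.9 FPKM (log2 fold change 0.25 ± 0.08, adjusted p = 0.0458, limma), and passed in 1 of 8 fits that each left out a library. Rpsa, whose protein is also known as the laminin receptor precursor, had 687 ± 82.2 and 740 ± 30.6 FPKM and did not pass (adjusted p = 0.448, limma).

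Of the 60S genes, 7 of 43 rose and 0 fell (median log2 fold change 0.24), against 11.9% and 15.6% of all genes tested. The single-exon Rpl21 id on chromosome X was 1 of the 7. Rpl35, of the polypeptide exit tunnel, had 132, 115, 85.7 and 94.3 FPKM in the control group, 124, 158, 222 and 245 FPKM in the PCOS group and 117, 111, 99.2 and 142 FPKM in the PCOS-MV group. PCOS replicate 1 overlapped the control group, and the log2 fold change of 0.78 ± 0.23 (SE, adjusted p = 0.0346, limma) passed in only 2 of 8 fits that left out a library. Rpl37a, a zinc-binding 60S protein gene, had 112, 94.5, 93.2 and 79.1 FPKM in the control group, 125, 144, 161 and 167 FPKM in the PCOS group and 87.2, 80.8, 81.2 and 102 FPKM in the PCOS-MV group. Its PCOS libraries were above all others (log2 fold change 0.65 ± 0.13, adjusted p = 0.00588, limma). Rpl24 had 228, 212, 192 and 203 FPKM in the control group, 260, 299, 301 and 334 FPKM in the PCOS group and 211, 197, 173 and 226 FPKM in the PCOS-MV group, again with no overlap (log2 fold change 0.51 ± 0.10, adjusted p = 0.00509, limma).

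Rpl5 and Rpl11 bind 5S ribosomal RNA and, outside the ribosome, the p53 regulator Mdm2. Rpl5 had 410, 373, 405 and 413 FPKM in the control group, 476, 499, 512 and 504 FPKM in the PCOS group and 408, 381, 342 and 378 FPKM in the PCOS-MV group. All PCOS libraries were higher than all others (log2 fold change 0.31 ± 0.07, adjusted p = 0.0145, limma). Rpl11 had 370 ± 37.9 and 455 ± 30.6 FPKM (log2 fold change 0.30 ± 0.10, adjusted p = 0.0526, limma). The Rpl21 id on chromosome X has a single exon and was counted with the 60S genes because it had the highest mean of the 4 ids. It had 109, 123, 127 and 113 FPKM in the control group, 165, 168, 163 and 169 FPKM in the PCOS group and 126, 132, 102 and 127 FPKM in the PCOS-MV group. It had the smallest adjusted p of the members (log2 fold change 0.49 ± 0.07, adjusted p = 0.0014, limma), beside the zeros of the id on chromosome 12, whose part in this was not tested. The sum of the 4 Rpl21 ids was 433 ± 141, 448 ± 184 and 275 ± 85.1 FPKM in control, PCOS and PCOS-MV rats (SD, n = 4). This sum includes the id on chromosome 12, whose zeros widen its spread. It therefore cannot show whether a change of the size seen on chromosome X is kept in the sum. Rpl10 (log2 fold change 0.28, adjusted p = 0.0413) and Rpl7 (0.21, adjusted p = 0.044) passed in 0 and 2 of the 8 fits that left out a library.

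**Figure D3:**
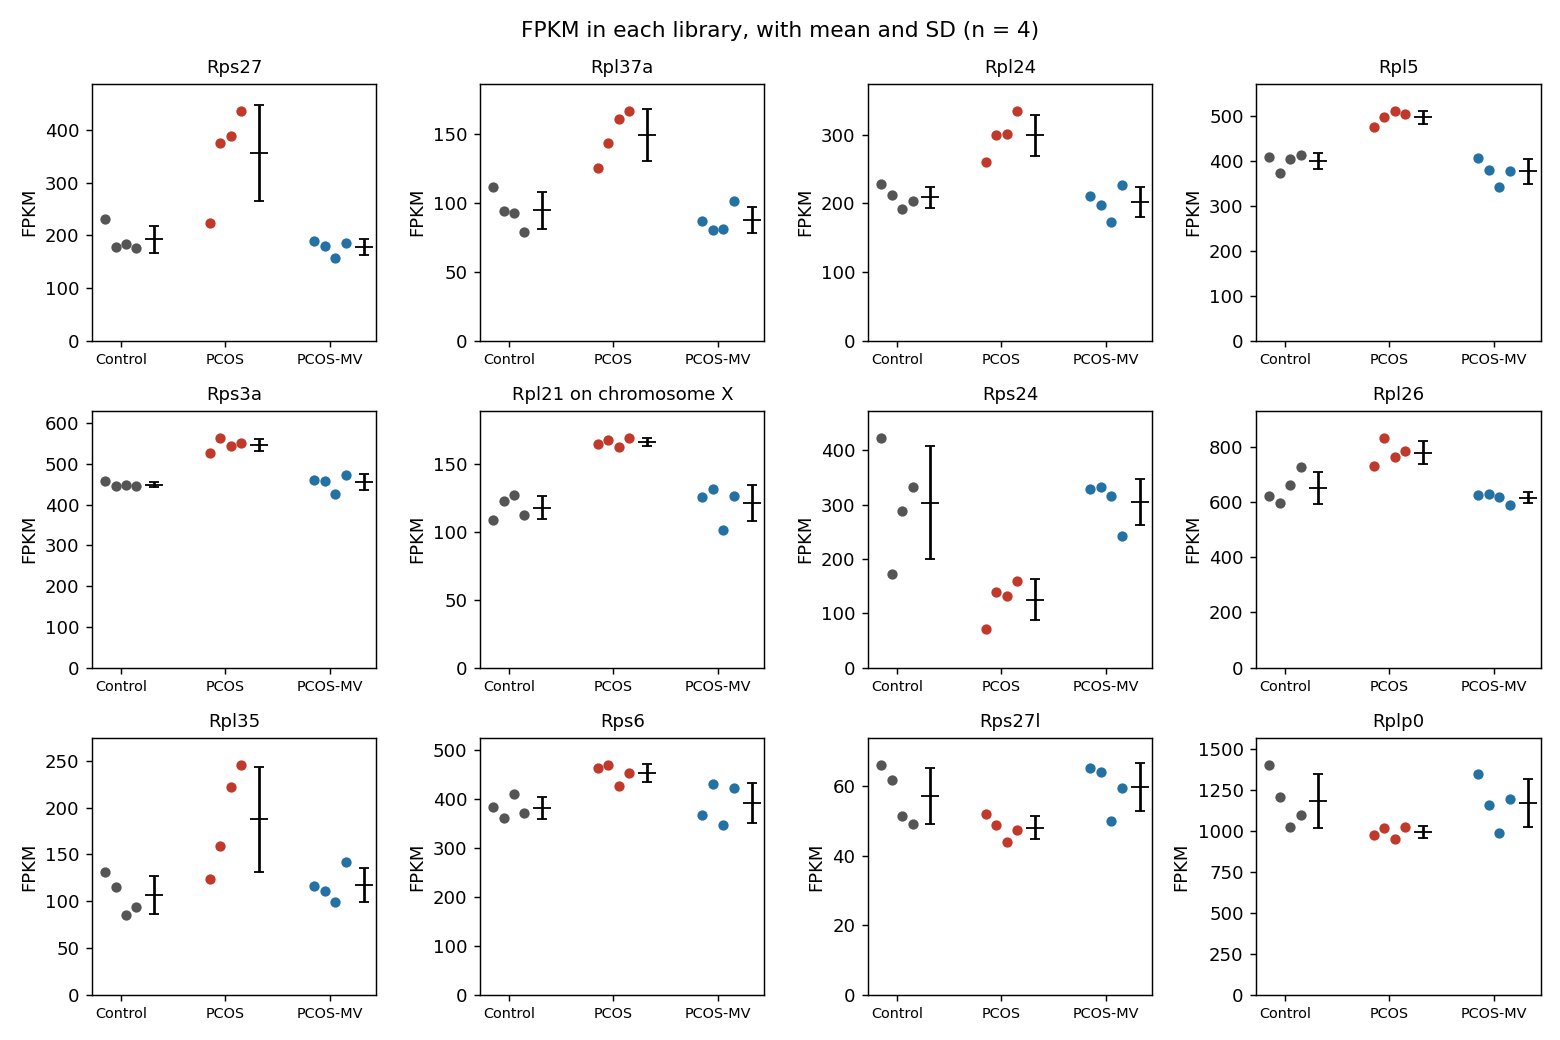
FPKM of 12 ribosomal protein genes in each library (points), with the group mean and SD (n = 4), on axes that start at 0. In Rpl37a, Rpl24, Rpl5, Rps3a, Rpl26 and the Rpl21 id on chromosome X every PCOS library is above every control and PCOS-MV library, and in Rps24 every PCOS library is below them.

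None of the 4 genes of the stalk and its base passed. Rplp0 had 1398, 1209, 1023 and 1095 FPKM in the control group, 972, 1017, 948 and 1026 FPKM in the PCOS group and 1344, 1155, 987 and 1193 FPKM in the PCOS-MV group. Its groups overlapped, and the log2 fold change was -0.24 (95% interval -0.51 to 0.02, adjusted p = 0.151, limma). Rplp1 had 1204 ± 79.2 and 1359 ± 92.8 FPKM (adjusted p = 0.226, limma) and Rplp2 had 88.8 ± 32.4 and 98.7 ± 20.5 FPKM (adjusted p = 0.611, limma). Rpl12, at the stalk base, was among the most variable members. It had 35.2, 102, 150 and 90.6 FPKM in the control group, 198, 172, 118 and 187 FPKM in the PCOS group and 31.0, 33.2, 97.5 and 137 FPKM in the PCOS-MV group. The log2 fold changes of 0.98 ± 0.39 and -1.42 ± 0.47 did not pass (adjusted p = 0.10 and 0.0563, limma).

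Rpl30 had the largest positive fold change without passing. It had 48.1, 70.6, 293 and 243 FPKM in the control group, 231, 357, 242 and 327 FPKM in the PCOS group and 197, 265, 212 and 271 FPKM in the PCOS-MV group. Control replicates 1 and 2 were far below all others, and the log2 fold change of 1.18 ± 0.55 had an adjusted p of 0.149 (limma). Rpl36a reached 108 FPKM in Control replicate 2 and 23.3 to 43.3 FPKM in the other 11 libraries. Rpl35al1 had 30.6 FPKM in PCOS replicate 2 and 29.9 FPKM in PCOS-MV replicate 1, and 3.41 to 8.32 FPKM elsewhere. These were exceptions. The median within-group SD of the members was 0.157 on the log2 scale, against 0.179 for all genes tested, and 60 members were under 0.2.

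In the file, 2 gene ids carry the name Rps27a, whose product is a fusion of ubiquitin and S27a. The id on chromosome 5 had 480, 492, 461 and 372 FPKM in the control group, 330, 276, 385 and 316 FPKM in the PCOS group and 532, 243, 469 and 302 FPKM in the PCOS-MV group. It fell in the PCOS group with overlap between groups (log2 fold change -0.47 ± 0.13, adjusted p = 0.0282, limma), and passed in 3 of 8 fits that left out a library and not after rescaling (adjusted p = 0.0529, limma) or with 1 model for all libraries (adjusted p = 0.14, limma). The id on chromosome 14 had 370 ± 108 and 546 ± 89.7 FPKM and did not pass (log2 fold change 0.59, adjusted p = 0.0826, limma). Their sum was 822 ± 130, 873 ± 71.1 and 855 ± 69.9 FPKM in control, PCOS and PCOS-MV rats (SD, n = 4), so the sum differed by less than the spread. Fau, which encodes a ubiquitin-like protein fused to a 40S protein, did not pass in either comparison with the PCOS group (adjusted p = 0.101 and 0.143, limma). Rps10l1, a further copy, rose from 73.1 ± 2.13 to 89.8 ± 3.57 FPKM (log2 fold change 0.29 ± 0.06, adjusted p = 0.00856, limma).

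**Figure D4:**
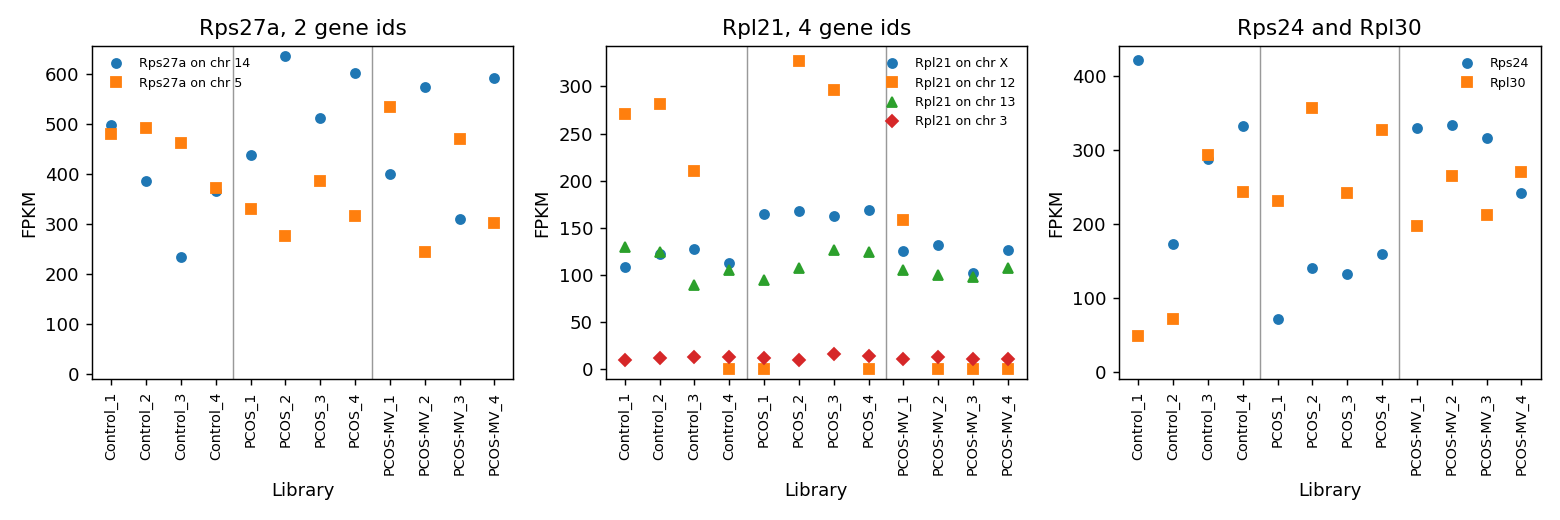
FPKM by library for the 2 gene ids named Rps27a, the 4 named Rpl21, and Rps24 with Rpl30, with lines between groups. The Rpl21 id on chromosome 12 is at 0 in 6 libraries, and Rps24 is at 70.6 to 159 FPKM in the PCOS libraries against 172 to 422 FPKM elsewhere.

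To ask whether MV changed these genes in PCOS rats, the PCOS-MV group was compared with the PCOS group. This comparison shares the PCOS libraries with the one above, so opposite directions are not independent evidence. Of the 87 members, 1 rose and 7 fell, which is 9.20% against 25.7% of all genes tested (14.3% rose and 11.4% fell). The median log2 fold change was -0.11, against 0.03 for all genes, and 24 of 87 members were above 0, against 53.7% of all genes. Without PCOS-MV replicate 3 the median was -0.04. In 12 members the groups did not overlap, against 30% of all genes. The PCOS-MV libraries were higher in 1 (16.7% of all genes) and lower in 11 (13.3% of all genes). An unadjusted p under 0.05 was found in 19 members, against 38.5% of all genes. Of these 8 members, 7 had also passed in the first comparison.

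Rps24 was the member that rose, from 125 ± 38.1 to 305 ± 42.8 FPKM (log2 fold change 1.33 ± 0.24, adjusted p = 0.00536, limma). Rps27 fell from 357 ± 91.9 to 178 ± 14.9 FPKM (-0.96 ± 0.20, adjusted p = 0.00892, limma) and Rpl37a from 149 ± 18.8 to 87.7 ± 9.69 FPKM (-0.76 ± 0.12, adjusted p = 0.00232, limma). Rpl24 (-0.57, adjusted p = 0.00765), the Rpl21 id on chromosome X (-0.46, adjusted p = 0.00802) and Rpl5 (-0.40, adjusted p = 0.0107) fell as well, and all 6 of these genes passed in 8 of 8 fits that left out a library. Rpl26, of the exit tunnel, had 732, 831, 764 and 785 FPKM in the PCOS group and 627, 629, 620 and 589 FPKM in the PCOS-MV group, with no overlap (log2 fold change -0.34 ± 0.09, adjusted p = 0.0238, limma). Rpl26 no longer passed without PCOS replicate 2 or without PCOS replicate 4. Rps3a fell too (log2 fold change -0.27, adjusted p = 0.0407, limma), but passed in 0 of 8 such fits.

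Between the PCOS-MV and control groups, 0 of 87 members passed (limma), against 0.00745% of all genes tested, and 1 member had an unadjusted p under 0.05, against 8.5% of all genes. The groups did not overlap in 2 members (5.1% of all genes), which were higher in the PCOS-MV group (2.81% of all genes), and in 0 members were they lower (2.29% of all genes). The median log2 fold change was 0.09, with a range of -0.45 to 0.90, and 69 members were above 0, against 49.1% of all genes. Rps24 had 305 ± 42.8 FPKM in the PCOS-MV group and 303 ± 104 FPKM in the control group, and Rps27 had 178 ± 14.9 and 192 ± 26.2 FPKM. For both genes the means differed by less than the SD of the control group.

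**Figure D5:**
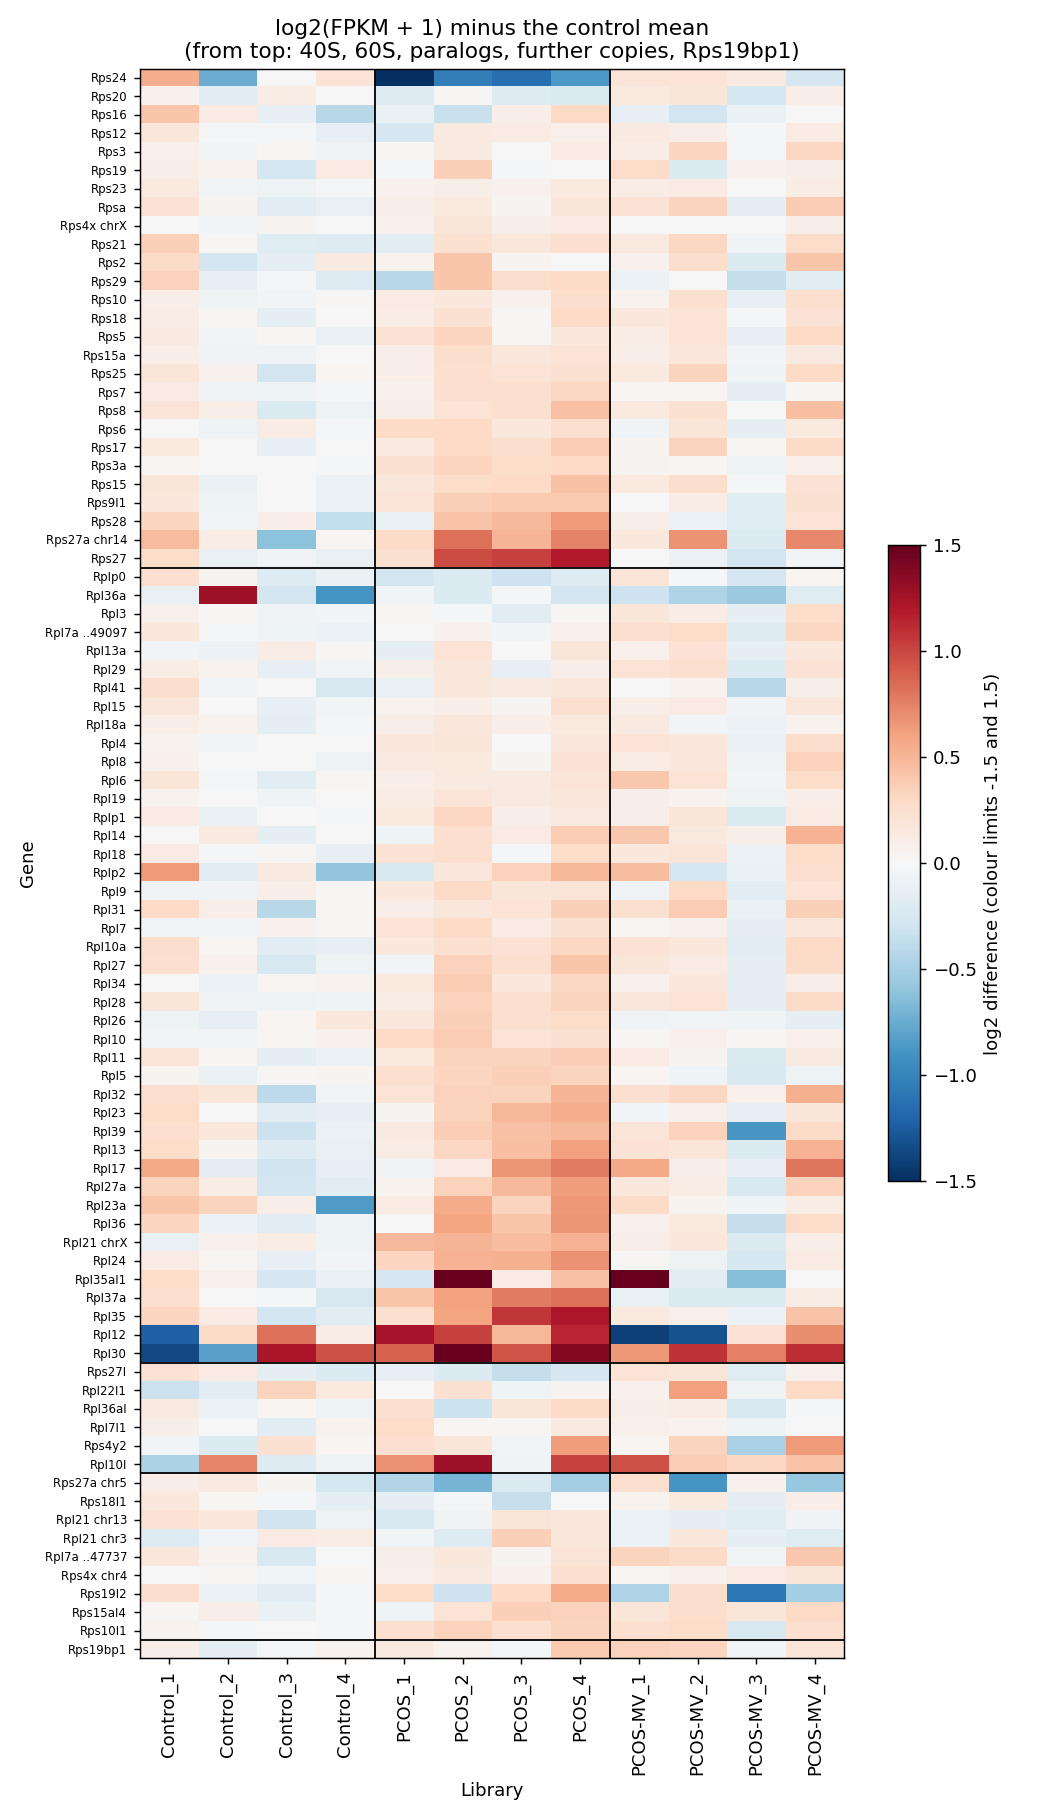
log2(FPKM + 1) of 86 of the 87 genes in 12 libraries minus the mean of the control libraries, with colour limits of -1.5 and 1.5, in blocks from the top for 40S genes, 60S genes, paralogs, further copies and Rps19bp1. Most rows are pale red in the PCOS columns, Rps24 is blue there, and PCOS-MV replicate 3 is paler or bluer than its group.

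Other genes that act with the ribosome are given by the same counts, beside the 11.9% of all genes that rose and 15.6% that fell in the PCOS group. Of 20 other genes with TOP messenger RNAs, 15 were above 0 with a median log2 fold change of 0.13, and 3 rose: Naca (0.40, adjusted p = 0.0193) and Btf3 (0.31, adjusted p = 0.0121), whose products bind nascent chains, and the initiation factor Eif4b (0.25, adjusted p = 0.0323, limma). The elongation factors Eef1a1 and Eef2 did not pass (adjusted p = 0.973 and 0.0652, limma), nor did Rack1, a 40S scaffold (adjusted p = 0.578, limma). Of 32 initiation factor genes (median -0.07), 4 rose and 3 fell, and of 46 ribosome biogenesis genes (median -0.01) 1 rose, the nucleolar protein gene Ncl (0.22, adjusted p = 0.0491), and 1 fell, Bop1 (-0.63, adjusted p = 0.0274, limma). In the group that links mTOR to the ribosome, 1 of 17 rose and 3 fell. Rheb, the GTPase that activates mTOR, fell from 84.1 to 47.5 FPKM (-0.81 ± 0.07, adjusted p = 0.000104, limma) and had a mean of 89.1 FPKM in the PCOS-MV group, higher than in the PCOS group (0.86 ± 0.16, adjusted p = 0.00613, limma). Myc, a transcription factor of ribosomal genes, fell (log2 fold change -0.60, adjusted p = 0.00994), and Eif4ebp2, which holds back initiation, rose (0.67, adjusted p = 0.00866, limma). Of 74 mitochondrial ribosomal protein genes, 4 rose and 7 fell, with a median of -0.08 against the 0.19 of the cytosolic members.

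Markers of several cell types, but not of all, differed between the groups. Of 11 granulosa markers, 6 rose in the PCOS group, and their summed FPKM ranged over 974.6 to 1362 in control, 1579 to 2265 in PCOS and 861 to 1478 in PCOS-MV libraries. Of 7 theca and interstitial markers, 4 rose and 2 fell, with sums of 98.9 to 171, 1652 to 3247 and 66.4 to 176 FPKM. A sum is weighted to the most abundant genes of a list. The median log2 fold change of these 7 markers was 0.66 in the PCOS group, and 5 of them were above 0. Of 7 luteal markers in the file, 1 rose and 4 fell, with sums of 4308 to 8107, 1854 to 3566 and 2994 to 7047 FPKM, and of 6 endothelial markers 1 rose and 5 fell. Of the other lists, 4 of 10 leukocyte markers and 1 of 6 oocyte markers rose, and 4 of 4 adipocyte markers and 2 of 14 proliferation markers fell. Over all genes tested, 11.9% rose and 15.6% fell, and the counts of oocyte and proliferation markers were near these shares. Of 6 smooth muscle markers and 1 oviduct marker tested, 0 passed. No marker of these lists was at 0 in all libraries. Their part in the results on ribosomal protein genes was not tested. Members were also short, with a median longest transcript of 636 bases against 2240 for all genes tested. Among genes of 400 to 600 bases, the 27 members had a median log2 fold change of 0.20 in the PCOS group and the 332 other genes 0.05. Under 400 bases the medians were 0.31 (12 members) and 0.04 (296 others). At 600 to 1000 bases they were 0.14 (32) and 0.02 (921), and at 1000 to 2000 bases 0.23 (14) and -0.02 (4031). The others could include ribosomal protein genes of placeholder names, and the part of length was not tested.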

How the data were processed

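Ovarian RNA from 12 rats was sequenced in paired-end mode, 1 library per rat and 4 rats per group by the labels. The authors deposited FPKM per gene. The paper names HISAT2 and featureCounts, whereas the submitters' processing notes name STAR 2.5.1b and HTSeq 0.6.0. The genome build was not given in the sources used here. The table also holds the authors' log2 fold changes, p-values and group means, which were not used. Values did not differ between the 26928 transcript lines of a gene, and 19730 genes were kept. With no counts, the 13430 genes averaging 1 FPKM or more were compared by limma 3.58.1 (R 4.3.3, eBayes with trend) on log2(FPKM + 1), 4 libraries against 4, which understates changes of low genes. The script was tested on simulated data with planted changes larger than those of any member that passed. Recovery of smaller changes was not tested. Plots were drawn with Python 3.11.15 and matplotlib 3.10.9. Separate rats were the replicates, and no 2 libraries were identical. Members and lists were chosen with earlier results of these data known. Genes were named by size of change among members past the threshold (6 each way), by level (5 highest, 5 lowest), as paralog pairs, as fixed stalk, 5S and other genes, and as members with a 0. Rps13, Rps14, Rps26, Rpl22, Rpl37, Rpl38 and Rpl26l1 were not analysed here, and single values of 1 member are not reported here. Alternatives were other pseudocounts, filters, scaling, models, a replicate block and leaving out each library.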

Additional observations from a re-analysis of the deposited data

Results flagged for a closer look

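In groups of 4 libraries, a library is listed here where its gap to the nearest other library was over 0.829 of the group's range (Dixon's 95% value). This held for 20 of 264 groups of member values, against 13.2 that chance gives, and 19 of them are given. PCOS-MV replicate 3 was low in 5 genes, with 145 FPKM in Rpl7a (ENSRNOG00000049097), 61.6 in Rps10l1, 645 in Rps23, 434 in Rps7 and 498 in Rpl29, and it was above its group's mean in 7 of 87 members. Control replicate 1 was high in 4 genes, with 140 FPKM in Rpl28, 371 in Rpl17, 231 in Rps27 and 379 in Rpl36, and it was above its group's mean in 73 of 87 members. PCOS replicate 2 was high in 5 genes, with 30.6 FPKM in Rpl35al1, 654 in Rps2, 1496 in Rplp1, 595 in Rps20 and 444 in Rps19. PCOS replicate 1 had a low value of 889 FPKM in Rpl41, and PCOS replicate 3 had a low value of 597 FPKM in Rpl4. PCOS-MV replicate 1 was high with 29.9 FPKM in Rpl35al1, 7.33 in Rpl10l and 158 in the Rpl21 id on chromosome 12, where the other 3 libraries of its group were at 0.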

How the results depend on the processing

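The median log2 fold change of the members kept its direction in all 3 comparisons under each alternative run, and leaving out 1 library gave 0.16 to 0.22 (PCOS against control), -0.14 to -0.04 (PCOS-MV against PCOS) and 0.05 to 0.15 (PCOS-MV against control). Without PCOS-MV replicate 3 the last 2 medians were -0.04 and 0.15, and the last was 0.13 without Control replicate 1 and 0.05 without PCOS-MV replicate 4. Counts of members past the threshold moved more. In PCOS against control, leaving out 1 library gave 6 to 19 members that rose and 1 to 2 that fell, with 19 without Control replicate 1, 6 without Control replicate 2, 7 without Control replicate 4, 6 without PCOS replicate 2 and 6 without PCOS replicate 4. Over all 13430 genes, 2762 to 3915 passed in these fits, against 3684 with all libraries. In the same comparison 1 member fell with no filter on low values, with 1 model for all 12 libraries, with libraries rescaled by median ratio and with 1 gene id per symbol. With a change of at least 1.5-fold also required, 3 rose and 1 fell, and in PCOS-MV against PCOS 2 fell. Over all genes, 1954 and 1732 passed under that rule in the 2 comparisons. In PCOS-MV against PCOS, leaving out 1 library gave 1 to 3 members that rose and 5 to 11 that fell, with 11 without PCOS replicate 1 and 3 that rose without PCOS-MV replicate 3, and 2 rose after rescaling. Over all genes, 2445 to 3354 passed in the fits without 1 library, against 3448 with all libraries. Adding genes of placeholder names with a ribosomal protein domain, an alternative chosen after seeing the data, gave 21 that rose and 6 that fell of 219 genes (12.3%, against 27.4% of all genes), and 2 and 13 of 219 in PCOS-MV against PCOS (6.85%, against 25.7%). The cause of these changes was not tested.

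With the replicate number as a block, 5 members rose and 0 fell in PCOS against control, and 2 rose and 5 fell in PCOS-MV against PCOS. Over all genes, 2905 and 3079 passed with the block. In the first comparison Rps27, Rps24, Rpl5, Rps3a, Rps6, Rps9l1, Rpl35, Rpl10, Rpl7 and the Rps27a id on chromosome 5 no longer passed and Rpl10l did. In the second Rpl26 and Rps3a no longer passed and Rps27l did. Correlations of same-numbered libraries ran from -0.03 to 0.02 in PCOS against control, from 0.04 to 0.17 in PCOS-MV against PCOS and from -0.05 to 0.22 in PCOS-MV against control. No comparison had all 4 over 0.1, so the numbers were not used as pairs. In PCOS-MV against PCOS, 3 of 4 were over 0.1 and 7 of 8 libraries correlated best with their own number, a hint of pairing from the data and not from the design, against 0 and 2 of 8 in the other comparisons. With the depth unknown, no counting error could be given for low members such as Rps4y2.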

Other observations

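The file also held 295 genes with placeholder names whose description names a ribosomal protein domain, and 134 of these averaged 1 FPKM or more. Their sum took 1.42% ± 0.0616 of all FPKM in the control group, 1.604% ± 0.101 in the PCOS group and 1.47% ± 0.107 in the PCOS-MV group (SD, n = 4). The Rpl36a paralog Rpl36al made up 63.6% ± 15.5, 67.9% ± 4.32 and 69.9% ± 2.60 of the summed FPKM of its pair in control, PCOS and PCOS-MV rats, and Rpl7l1 made up 17.6% ± 1.54, 16.7% ± 1.36 and 17.4% ± 1.03 of its pair with Rpl7. These shares differed by less than the spread between libraries.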
